A study of Homo sapiens with 12 samples.

Results

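RHCE, RHD, RHAG, GYPB, GYPE, SLC4A1, EPB42 and ANK1 encode proteins of the red cell surface and of the lattice beneath it. The genes were taken by name, with earlier results of these data known. Every probe annotated to 1 of them was described, whatever its signal. Of the 8 genes, 6 had a probe among the 20046 genes named on the array, with 9 probes in all. GYPB and GYPE had no probe under those names in the annotation used here, so the glycophorins have no values below. RHCE had 3 probes, ANK1 had 2, and RHD, RHAG, SLC4A1 and EPB42 had 1 each.

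RNA was measured in K562, a human erythroleukemia cell line that carries part of the erythroid programme. The cells were either wild type or expressed AE9a, a truncated splice form of the leukemia fusion protein AML1-ETO, and each line received 3 µg of a control siRNA or of an siRNA against the arginine methyltransferase PRMT1 (siPRMT1) by nucleofection and was harvested after 24 h. Each of the 4 groups had 3 arrays, 12 in all. The labels do not say whether the arrays of a group came from separate cultures, so p-values measure the spread between these arrays, which may be technical. They also do not say whether the AE9a cells were 1 clone or how AE9a was introduced, so a difference between the lines and an effect of AE9a cannot be told apart.

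RHD and RHCE are membrane proteins that carry the D antigen and the C/c and E/e antigens, and they reach the red cell surface only in a complex with RHAG, the Rh-associated glycoprotein. SLC4A1 (band 3) is the chloride and bicarbonate exchanger of the red cell, EPB42 (protein 4.2) binds it, and ANK1 (ankyrin 1) ties band 3 and the Rh complex to the spectrin skeleton. GYPB and GYPE belong to the glycophorin family, the sialic acid-rich surface proteins of the red cell that carry the MNS blood group.

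The arrays had median raw intensities of 60.5 to 74.3. Probes of olfactory receptor genes, which these cells are not known to express, served as a background: their 95th percentile lay between 66.7 and 79.5 over the 12 arrays, and a probe above it on its own array is called above background. PRMT1, the targeted gene, averaged 1446 ± 346 (SD, n = 3) in raw intensity with control siRNA and 1059 ± 190 with siPRMT1 in the wild type line, against 769 ± 64.5 and 485 ± 35.5 in AE9a cells. Its raw readings overlapped between the siRNAs in wild type cells (1166.2 to 1832 with control siRNA, 902.3 to 1269.7 with siPRMT1). They did not overlap in AE9a cells (695.3 to 816.8 and 461.4 to 525.8). The 5 probes of RUNX1T1, the ETO gene, were above background on at most 1 array of any group, which leaves the AE9a label without a check on these arrays. Erythroid markers fitted the label of the line: all 13 listed markers that were tested were above background on all arrays.

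The Rh genes were at or near background in wild type K562 cells and were bright in AE9a cells. RHCE rose 18.3-fold and RHD at least 9.94-fold in AE9a over wild type cells under control siRNA, and their partner RHAG, already high in wild type cells, rose 1.84-fold. With siPRMT1, RHCE fell to 0.543 and RHD to 0.668 of its control level in AE9a cells, where RHAG, EPB42 and ANK1 did not pass the test.

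**Figure D1:**
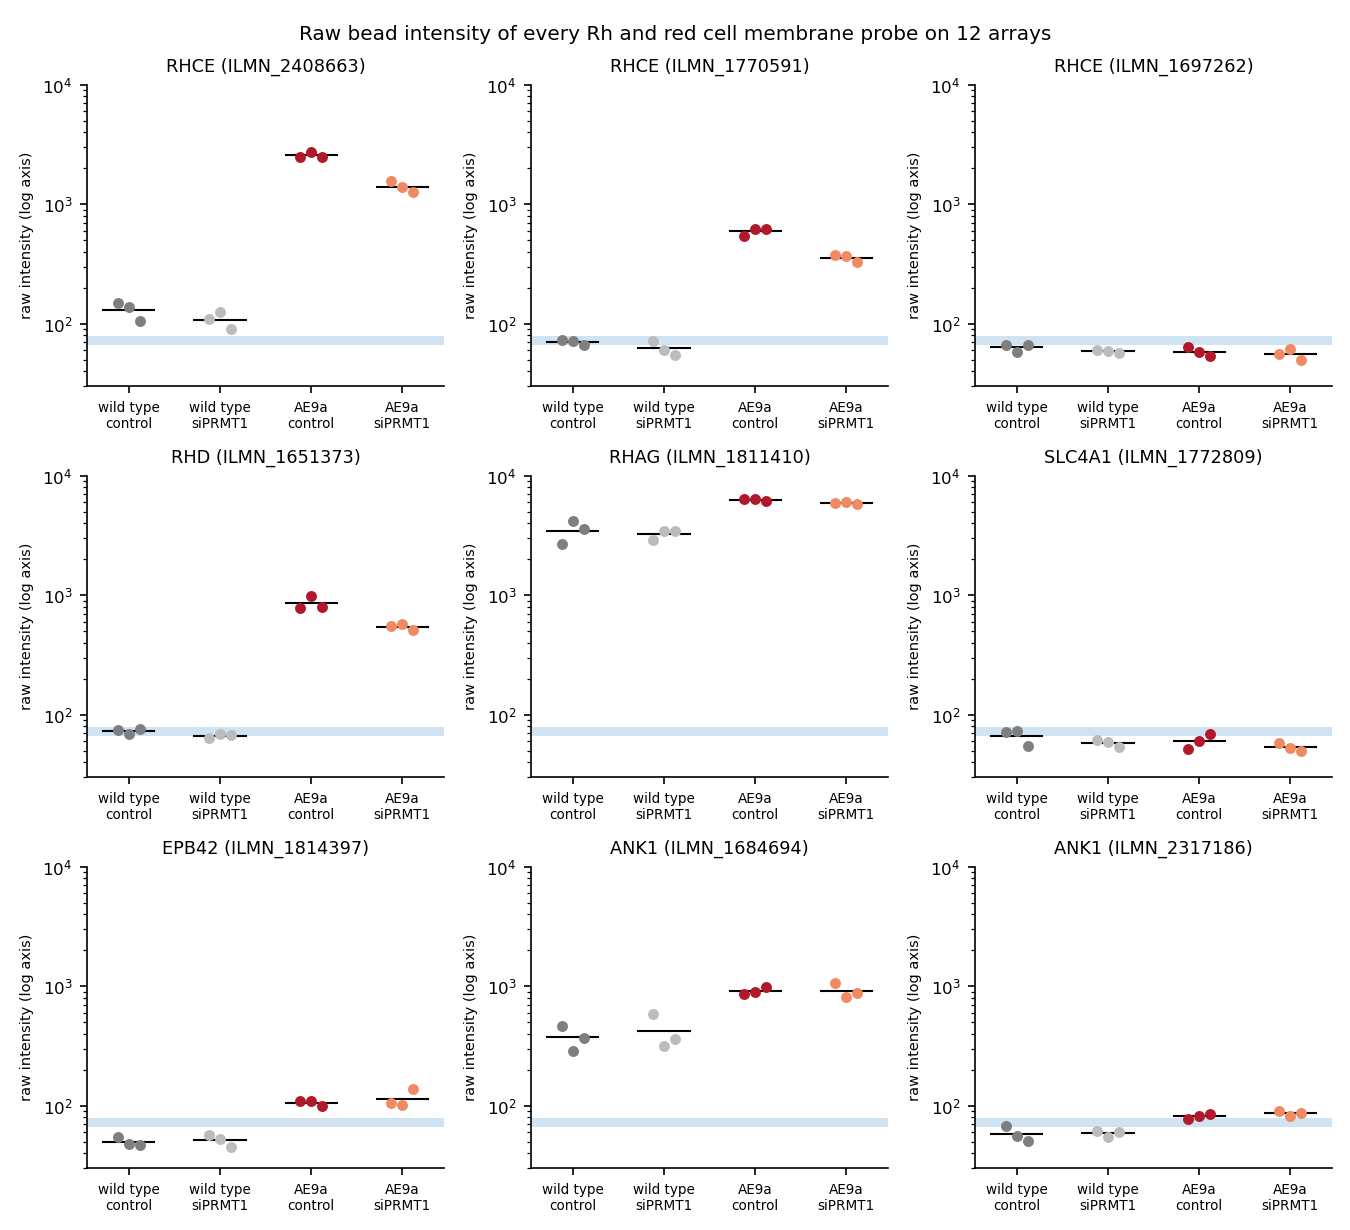
Raw intensity (log axis) of the 9 probes of the 6 genes, 1 panel per probe, with dots for the 3 arrays of each group and a line for the group mean. The band spans the olfactory receptor background of 66.7 to 79.5 over the arrays. RHD, the second RHCE probe and, at a lower signal, EPB42 rise above the band in AE9a cells alone. RHAG, the brightest RHCE probe and the brighter ANK1 probe lie above it in every group, and SLC4A1 and the third RHCE probe in none. The dimmer ANK1 probe lies near its upper edge in AE9a cells.

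RHD and RHCE are neighbouring copies of one another, and the stretches before their start sites are printed here because both genes moved together and are nearly the same sequence there. The windows, from RefSeq on GRCh38.p14, cover the 250 bases before a start site, chr1:25420826-25421075 on the minus strand for RHCE and chr1:25272259-25272508 on the plus strand for RHD. Capitals mark the letters of GATA words (AGATAA or the related words TGATAA, written with a different first base, and AGATAG or also TGATAG, written with a different last base) and of CACCC, each searched on both strands, so that CACCC on the other strand reads GGGTG.
RHCE: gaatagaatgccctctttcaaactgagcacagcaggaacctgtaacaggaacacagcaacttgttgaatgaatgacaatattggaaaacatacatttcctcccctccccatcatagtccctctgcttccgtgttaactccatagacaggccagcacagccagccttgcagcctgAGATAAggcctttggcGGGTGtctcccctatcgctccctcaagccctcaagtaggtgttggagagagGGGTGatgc
RHD: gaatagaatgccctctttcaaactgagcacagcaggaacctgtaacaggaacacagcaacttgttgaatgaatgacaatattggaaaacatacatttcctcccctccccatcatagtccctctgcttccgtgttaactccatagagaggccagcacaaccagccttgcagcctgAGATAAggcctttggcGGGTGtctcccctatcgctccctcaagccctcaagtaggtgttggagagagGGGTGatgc
Of the 250 bases, 248 were identical (99.2%), and the differences were G146C and A158G, with the RHD base first and positions counted from 1 at the 5′ end of the window. Both windows held AGATAA 76 to 71 bases before the start and GGGTG at 60 to 56 and at 9 to 5 bases before it, and neither difference fell in such a word. Both genes have a further annotated start site whose window is shifted along the same sequence, and that of RHCE held no GATA word and 1 CACCC.

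The windows of RHAG, chr6:49636840-49637089 on the minus strand, and EPB42, chr15:43221019-43221268 on the minus strand, are shown for comparison, since both genes also rose in AE9a cells but did not pass the test under siPRMT1.
RHAG: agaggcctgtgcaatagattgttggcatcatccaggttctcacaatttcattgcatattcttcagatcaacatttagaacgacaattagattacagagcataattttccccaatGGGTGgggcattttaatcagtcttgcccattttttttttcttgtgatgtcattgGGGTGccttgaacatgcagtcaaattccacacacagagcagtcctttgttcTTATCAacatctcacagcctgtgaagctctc
EPB42: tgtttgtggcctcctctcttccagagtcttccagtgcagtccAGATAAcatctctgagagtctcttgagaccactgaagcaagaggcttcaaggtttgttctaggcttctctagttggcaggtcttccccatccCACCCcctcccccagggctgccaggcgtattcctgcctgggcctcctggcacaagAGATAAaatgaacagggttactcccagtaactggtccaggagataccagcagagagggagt
RHAG held TTATCA, which reads TGATAA on the other strand, 31 to 26 bases before its start, with GGGTG at 136 to 132 and at 82 to 78. EPB42 held AGATAA at 208 to 203 and at 61 to 56, and CACCC at 116 to 112. The promoter table had 6 of the 8 genes, SLC4A1 and ANK1 not among them. A GATA word stood before at least 1 start site of all 6 and CACCC before at least 1 of 5 of the 6, and the RUNX words TGTGGT or otherwise TGCGGT, searched the same way, before none. Over 35116 promoters of the same length, 22.3% held a GATA word, 54.7% CACCC and 16.3% a RUNX word, which are shares of windows, not of genes with several start sites. Such matches describe the letters of a short window and show neither binding nor its absence.

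The 3 RHCE probes are annotated to different transcripts. The brightest, annotated to NM_138617, read 150, 137.8 and 104.5 in wild type cells with control siRNA and 108.9, 126 and 89.8 with siPRMT1. In AE9a cells it read 2478.8, 2745.8 and 2489 with control siRNA and 1546.8, 1379 and 1260.2 with siPRMT1. The line groups did not overlap, and within AE9a cells all 3 siPRMT1 arrays were below all 3 control arrays, while the wild type siRNA groups overlapped. The second, annotated to NM_020485, was above background on no wild type array (55.3 to 73.3). It read 545.6, 619.4 and 621.8 in AE9a cells with control siRNA and 375.9, 371 and 325.2 with siPRMT1, again without overlap. The third, annotated to NM_138618, was above background on no array, with group means of 56.0 to 63.5, so nothing can be said of a change in that transcript.

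RHD read 74.9, 69 and 75.4 in wild type cells with control siRNA and 64.4, 68.8 and 67.8 with siPRMT1, above background on 1 of these 6 arrays. In AE9a cells it read 783.5, 980.1 and 800.4 with control siRNA and 550.6, 572.7 and 510.8 with siPRMT1. The order of the groups was that of RHCE: AE9a with control siRNA, AE9a with siPRMT1, then the wild type groups. The raw wild type readings of RHD did not overlap between the siRNAs, but all lay at or near background, and their normalised difference was not called. Because the genes are near-identical copies and probe sequences were not used here, an RHD probe may also read RHCE RNA and the reverse. In a culture measured as a whole, fewer cells expressing a gene and less of its RNA per cell cannot be told apart.

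RHAG was above background on every array. It read 2662.6, 4180.3 and 3547.6 in wild type cells with control siRNA and 2908.7, 3406.8 and 3450.1 with siPRMT1. In AE9a cells it read 6357.8, 6305.6 and 6090.6 with control siRNA and 5878.8, 6011.2 and 5741.1 with siPRMT1. Every AE9a array was above every wild type array, and the wild type arrays varied more: the SD was 762 under control siRNA against 142 in AE9a cells.

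The band 3 complex and its anchor behaved unequally. SLC4A1 was above background on no array, with 49.7 as its lowest and 73.4 as its highest reading, so band 3 RNA was not detectable on this probe in any group. EPB42 was above background on no wild type array, at 54.9, 47.5 and 46.7 with control siRNA and 57.1, 52.5 and 44.9 with siPRMT1. It was above background on every AE9a array, at 109.9, 109.1 and 98.8 with control siRNA and 104.7, 101.2 and 137.9 with siPRMT1. EPB42 thus separated the lines without overlap at a low signal, and its highest reading came from a single AE9a siPRMT1 array.

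ANK1 was above background on every array by its brighter probe. That probe read 465.9, 285 and 371.6 in wild type cells with control siRNA and 589.9, 316.4 and 362 with siPRMT1. In AE9a cells it read 861.6, 888.1 and 989.2 with control siRNA and 1057.1, 813.4 and 877.1 with siPRMT1. The lines did not overlap and the siRNA groups did within each line. The dimmer ANK1 probe was above background on no wild type array (50.4 to 67.2) and on all AE9a arrays (78.1 to 90.3).

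Same-numbered wild type arrays deviated alike in RHAG and ANK1 but not in every gene of the set. For RHD, at or near background, replicate 2 was the lowest with control siRNA (69) and the highest with siPRMT1 (68.8). Wild type replicate 1 had the lowest RHAG reading and the highest ANK1 reading under both siRNAs. Across all tested probes the deviations of same-numbered wild type arrays from their group means had correlations of 0.578, 0.283 and 0.536, against -0.203, -0.296 and 0.000660 in AE9a arrays. The numbers were therefore taken to pair the wild type arrays, and the fit that keeps this pairing is given below where it changes a call.

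Differences between groups were tested on log2 values of background-corrected, quantile-normalised intensity, with an offset of 50 that understates changes of dim probes. Of the 9 probes, 7 passed a filter on mean signal, covering 5 genes. The SLC4A1 probe and the third RHCE probe did not. RHD, EPB42, the second RHCE probe and the dimmer ANK1 probe were bright enough to pass mainly through their AE9a arrays. Such a filter can raise the count called higher and the median between the lines. The genes were also chosen with earlier results of these data known. The number of genes tested, and the counts called and medians of the set below, therefore carry no weight of their own. Adjusted p-values are from limma with Benjamini-Hochberg adjustment over 28338 probes, and a probe is called at 0.05.

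In AE9a over wild type cells under control siRNA, all 5 tested genes were called higher, against 13.2% of all tested probes called higher and 26.7% called in either direction. The median of the 5 genes, which the filter can raise, was 1.27 on the log2 scale, beside -0.02 over all tested probes. RHCE differed by 4.19 ± 0.14 (log2 ± SE, adjusted p = 3.26e-11), 18.3-fold, by its brightest probe, and was at least 7.11-fold higher by its second (adjusted p = 1.43e-10). RHD was at least 9.94-fold higher (adjusted p = 3.73e-11), a bound that sets wild type arrays no lower than the background, which 1 of 3 exceeded. Its fitted log2 difference was 3.37, and 4.07 with an offset of 16, so that the fitted size depends on the offset. RHAG differed by 0.88 ± 0.15 (adjusted p = 0.000652), 1.84-fold. ANK1 differed by 1.27 ± 0.19 (adjusted p = 0.000211), 2.41-fold, by its brighter probe and was at least 1.11-fold higher by its dimmer one (adjusted p = 0.000259). EPB42 was at least 1.37-fold higher (adjusted p = 1.81e-05), where a bound is given because no wild type array was above background.

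Under siPRMT1 the same 5 genes were called higher in AE9a over wild type cells, against 11.9% of all tested probes called higher and 24.7% called in either direction, with a median of 1.18 beside -0.01. RHCE differed by 3.53 ± 0.14 (adjusted p = 1.91e-10), 11.5-fold, and by at least 4.46-fold on its second probe (adjusted p = 1.33e-09). RHD was at least 6.70-fold higher (adjusted p = 2.15e-10). RHAG differed by 0.85 ± 0.15 (adjusted p = 0.000942), 1.80-fold, and ANK1 by 1.18 ± 0.19 (adjusted p = 0.000429), 2.26-fold. The dimmer ANK1 probe was at least 1.21-fold higher (adjusted p = 0.000110) and EPB42 at least 1.53-fold higher (adjusted p = 7.14e-06). RHCE and RHD thus stayed far above wild type cells after the knockdown.

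**Figure D2:**
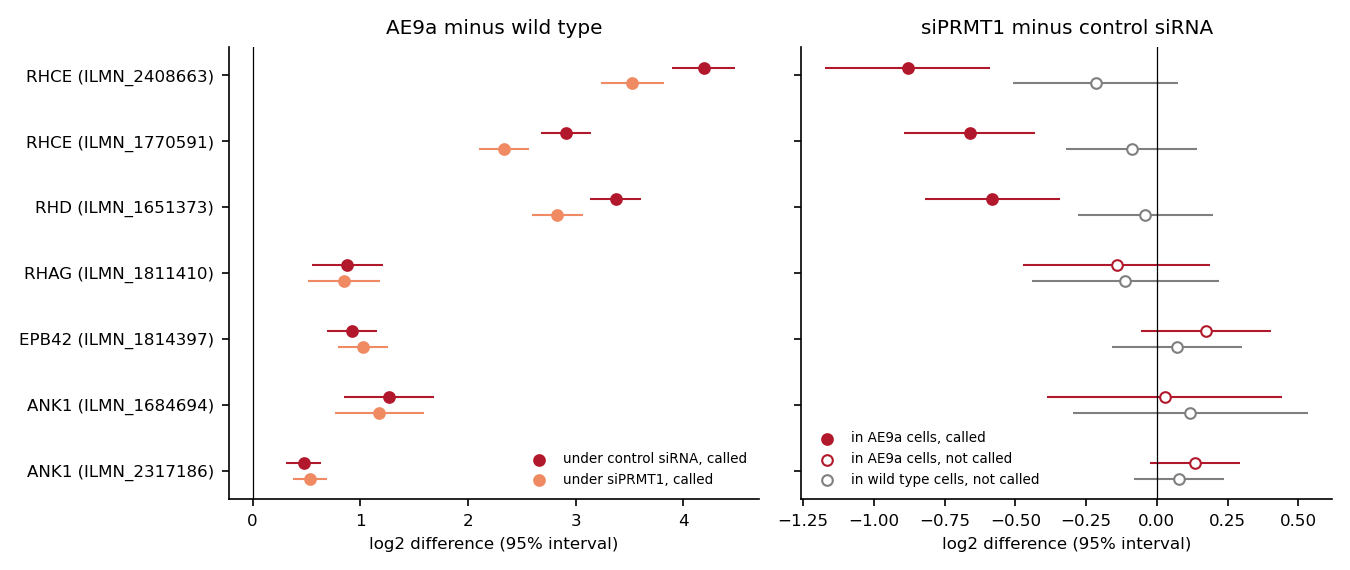
Log2 differences with 95% intervals for the 7 tested probes, AE9a minus wild type on the left (by siRNA) and siPRMT1 minus control siRNA on the right (by line); filled points were called at 0.05 and open points were not. All points on the left are called, and on the right only the 2 RHCE probes and RHD in AE9a cells.

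In AE9a cells the Rh antigen genes were the ones that passed the test under siPRMT1. RHCE and RHD were called lower, 2 of 5 genes, against 7.39% of all tested probes called lower, and none was called higher, against 6.42% (13.8% in either direction). RHCE fell by 0.88 on the log2 scale, with a 95% interval of -1.17 to -0.59 (adjusted p = 0.00108), 1.84-fold, and by 0.66 on its second probe (SE 0.11, adjusted p = 0.00150), 1.58-fold. RHD fell by 0.58, with an interval of -0.82 to -0.34 (adjusted p = 0.00373), to 0.668 of the control level. RHAG differed by -0.14 (interval -0.47 to 0.19, adjusted p = 0.644). Neither membrane gene passed: EPB42 differed by 0.17 (interval -0.06 to 0.40, adjusted p = 0.341) and the brighter ANK1 probe by 0.03 (interval -0.39 to 0.44, adjusted p = 0.956). The lower ends of the RHAG and ANK1 intervals lay short of the fitted falls of RHCE and RHD, but within the RHD interval. Differences between genes in the size of the fall were not tested.

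In wild type cells, where raw PRMT1 readings overlapped between the siRNAs, siPRMT1 called none of the 5 genes, beside 0% of all tested probes. The smallest adjusted p over all probes there was 0.138, with 2471 probes at an unadjusted p under 0.05 and none of the 5 genes among them. RHCE, dim but above background, differed by -0.22 (interval -0.51 to 0.07, adjusted p = 0.673). RHD readings were at or near background and give no size. RHAG differed by -0.11 (interval -0.44 to 0.22, adjusted p = 0.865) and ANK1 by 0.12 (interval -0.30 to 0.53, adjusted p = 0.886).

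Whether the knockdown acted differently in the lines was tested as the difference between both effects. No gene of the set was called, beside 0.917% of all tested probes (0.3% higher and 0.618% lower), and RHCE and RHD were the 2 of 5 genes with an unadjusted p under 0.05. For RHCE the AE9a effect minus the wild type effect was -0.66 (interval -1.08 to -0.25, adjusted p = 0.138). The wild type side of the second RHCE probe is background and that of RHD is at or near it, so their differences have no size that can be read. With the replicate block in wild type arrays the brightest RHCE probe was called (adjusted p = 0.0224). For RHAG the difference was -0.03 (interval -0.50 to 0.44, adjusted p = 0.971).

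The genes around RHD and RHCE were then examined, chosen after values had been seen. Those with a tested probe run, in RefSeq's order on chromosome 1, RUNX3, a runt-domain transcription factor, SYF2, a pre-mRNA splicing factor, RSRP1, an arginine and serine rich protein, RHD, TMEM50A, a transmembrane protein, RHCE, and MACO1 (macoilin). By the brightest probe of each, RSRP1 (1.20, adjusted p = 0.000857), TMEM50A (0.67, adjusted p = 0.000766) and MACO1 (0.61, adjusted p = 0.000383) were higher in AE9a over wild type cells under control siRNA, and RUNX3 was lower (-0.55, adjusted p = 0.00523). These log2 differences lay below the 4.19 of RHCE and the lower bound of 3.31 of RHD, on either side of both genes and between them. SYF2 differed by 0.42 (adjusted p = 0.0165), a call that was lost without AE9a control replicate 2 (adjusted p = 0.0693). Its second probe gave 0.75 (adjusted p = 0.000579) and the third 0.01 (adjusted p = 0.978).

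By their brightest probes, SYF2 and RSRP1 were called lower under siPRMT1 in AE9a cells, as RHD and RHCE were. The other neighbours were not called, and differences between neighbours were not tested. TMEM50A, which lies between the Rh genes, differed by 0.16 and RUNX3 by 0.10, and neither was called. SYF2 fell by 0.80 (SE 0.12, adjusted p = 0.000814) and by 0.95 on its second probe (adjusted p = 0.000523), while the third was not called (-0.21, adjusted p = 0.214). RSRP1 gave -0.69 (adjusted p = 0.0491), a call lost under other settings and without single arrays, with adjusted p up to 0.153, and its second probe gave -0.90 (adjusted p = 0.00414). MACO1 gave -0.31 (adjusted p = 0.0541) and was not called. Over all its alternatives the adjusted p ran from 0.00771 to 0.167. It was called under several of them, among them the replicate block in wild type arrays (0.0261). SYF2 was the neighbour with a called difference between the lines, by its second probe (-0.85, adjusted p = 0.0477), and with the same block its brightest probe was called too (adjusted p = 0.0330).

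**Figure D3:**
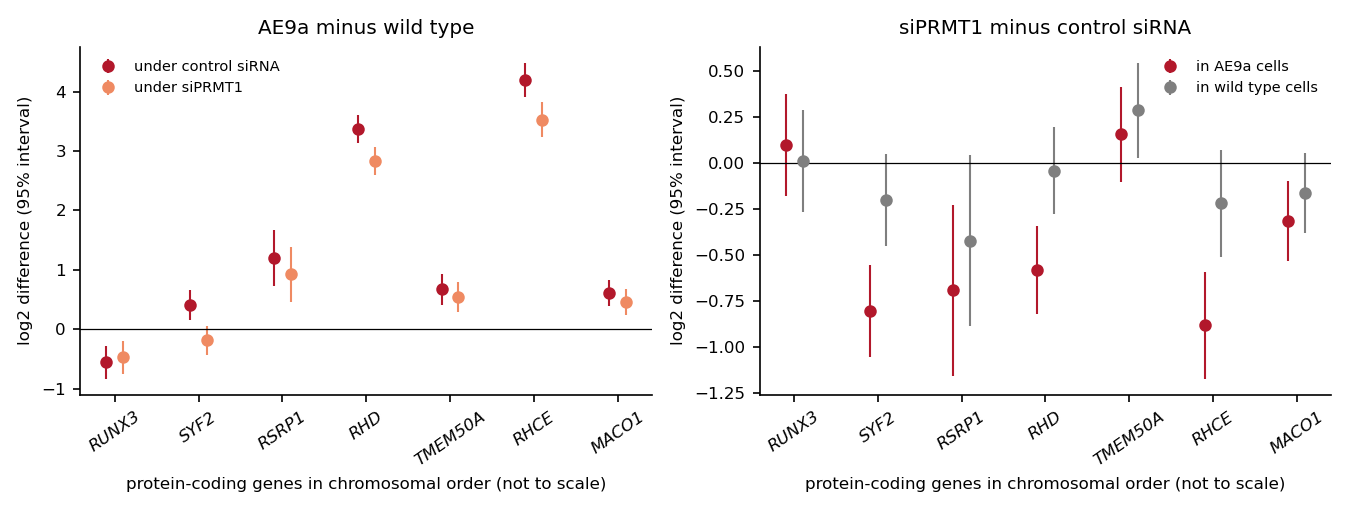
Log2 differences with 95% intervals for the brightest probes of RHD, RHCE and 5 genes around them, in chromosomal order and not to scale. AE9a minus wild type is on the left (by siRNA) and siPRMT1 minus control siRNA on the right (by line). Between the lines under control siRNA, RHCE at 4.19 and RHD at a fitted 3.37, with a lower bound of 3.31, stand above TMEM50A at 0.67, which lies between them.

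A list of 37 other red cell membrane and blood group genes gave the setting for these values. Of these, 33 had a probe and 30 were tested. In AE9a over wild type cells under control siRNA, 10 of the 30 were called higher and 4 lower (ADD2, CD44, CD55 and CD59), beside 13.2% and 13.4% of all tested probes, with a median of 0.03 beside -0.02 over all tested probes. ADD2, the beta subunit of the skeletal protein adducin, read 412, 533.1 and 320.4 in wild type and 83.7, 74.1 and 67.9 in AE9a cells, of which 2 were above background (fitted log2 difference -2.27 ± 0.15, adjusted p = 4.49e-08). TPM1, a tropomyosin of the actin junctions, rose by 1.89 (SE 0.15, adjusted p = 3.93e-07), though 1 of its 3 tested probes gave 0.07 and was not called. ICAM4, the LW blood group protein that accompanies the Rh complex, read 423, 476.6 and 356.3 in wild type and 1177.9, 1123 and 1141.9 in AE9a cells (1.43 ± 0.12, adjusted p = 6.58e-07), and 1 of its 3 probes gave 0.01 and was not called. Under siPRMT1, 10 were called higher and 7 lower, beside 11.9% and 12.8%, with a median of -0.07, ADD2 at least 6.48-fold lower (adjusted p = 5.11e-09), ICAM4 higher by 1.69 (adjusted p = 1.25e-07) and the glucose transporter gene SLC2A1 by 1.09 (adjusted p = 1.68e-06).

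KEL and XK, which encode the partner proteins of the Kell blood group, were both higher in AE9a over wild type cells. KEL is named here after its values were seen, and read 193.1, 592 and 449.5 in wild type and 1716.2, 1801.2 and 1634.3 in AE9a cells with control siRNA (2.18 ± 0.32, adjusted p = 0.000144). XK read 897.3, 1155.2 and 907.2 in wild type and 1870.3, 1934.3 and 1832.8 in AE9a cells (0.93 ± 0.13, adjusted p = 7.5e-05). Neither pair of groups overlapped.

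Under siPRMT1 in AE9a cells, 5 of the 30 listed genes were called lower (EPB41, DMTN, TMOD1, MPP1 and XK) and 2 higher (CD59 and AQP3), with a median of -0.13 beside 0.01 over all tested probes. Among all tested probes 7.39% were called lower and 6.42% higher. EPB41 (protein 4.1) and DMTN (dematin) bind spectrin and actin, and TMOD1 (tropomodulin) caps actin filaments, while the skeletal genes SPTB (0.06), ADD1 (-0.24), ADD2 (-0.13), ADD3 (-0.54) and TPM1 (-0.29) were not called. TMOD1 read 2815.2, 2827.9 and 2628.8 with control siRNA and 1970.5, 1674.5 and 1351.5 with siPRMT1, a fall by 0.74 (SE 0.13, adjusted p = 0.00234). XK read 1133.2, 1289 and 1083 with siPRMT1, a fall by 0.69 (SE 0.13, adjusted p = 0.00284). AQP3, a water and glycerol channel, was above background on no control array and at least 1.09-fold higher (adjusted p = 0.0145), a call lost without AE9a control replicate 3 (0.0782) or AE9a siPRMT1 replicate 3 (0.0733). The count of 7 depended on single arrays: it was 3 without AE9a control replicate 2, AE9a control replicate 3 or AE9a siPRMT1 replicate 3, 4 without AE9a siPRMT1 replicate 2, and 12 with the replicate block in wild type arrays.

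In wild type cells none of the 30 was called under siPRMT1 (median -0.04, 8 at an unadjusted p under 0.05), and 4 were called, all lower, without wild type control replicate 3. For the difference between the lines none was called (median -0.09, 5 at an unadjusted p under 0.05). TMOD1 was near the threshold there (-0.82, adjusted p = 0.0536): it was called with the replicate block in wild type arrays (0.0134) and under several other settings, and over all its alternatives the adjusted p ran from 0.0134 to 0.153.

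**Figure D4:**
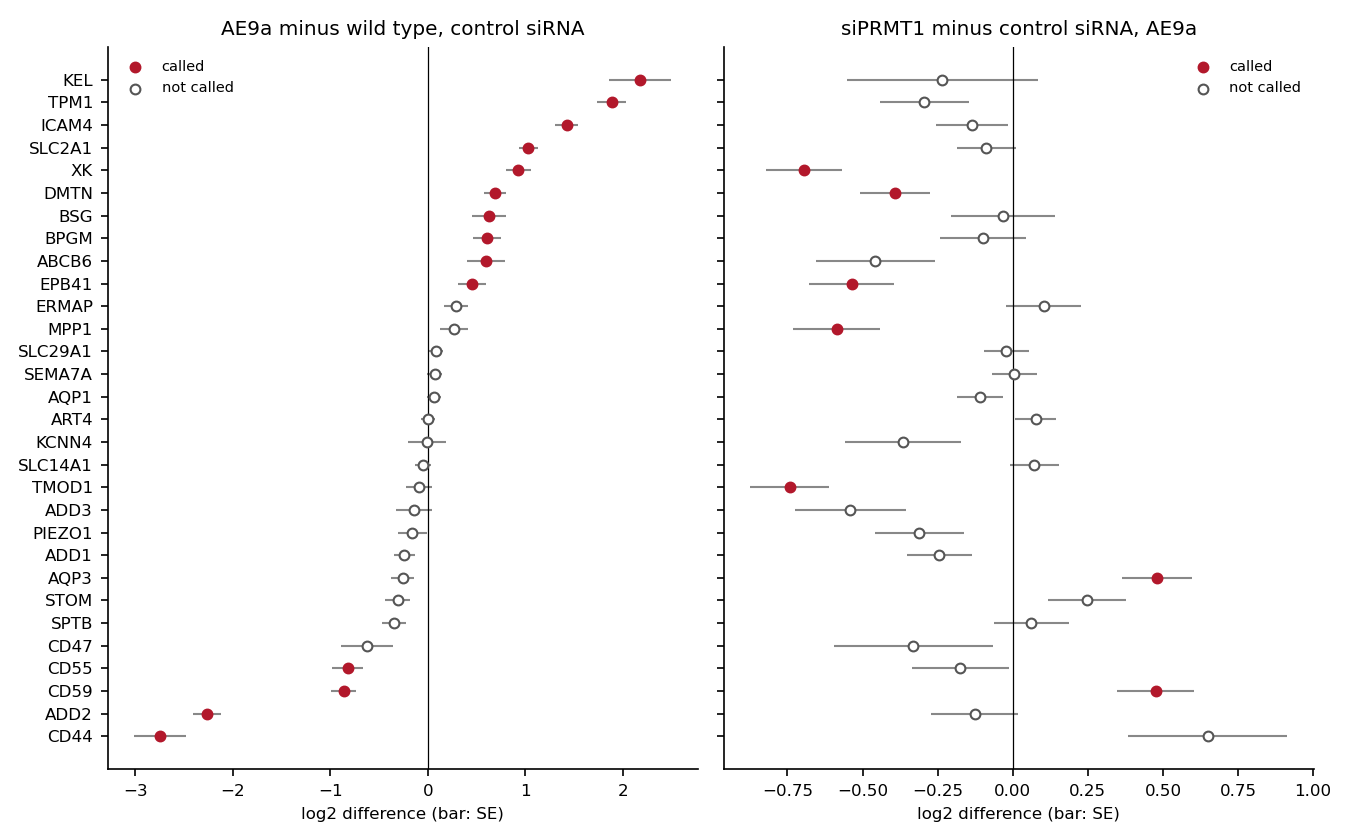
Log2 differences with SE for the 30 tested red cell membrane and blood group genes, AE9a minus wild type under control siRNA and siPRMT1 minus control siRNA in AE9a cells. Between the lines KEL has the highest value at 2.18, the fitted value of CD44 at -2.74 stands against AE9a arrays at background, and under siPRMT1 TMOD1 has the lowest value at -0.74.

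Other erythroid genes moved between the lines as well. Of 13 tested erythroid markers, 6 were called higher and 1 lower (TFRC) in AE9a over wild type cells under control siRNA. Among all tested probes 13.2% were called higher and 13.4% lower. The summed raw intensity of the 13 markers was 207527 to 216782 in AE9a and 122206 to 140850 in wild type arrays. Under siPRMT1 in AE9a cells, ALAS2, the erythroid enzyme that starts heme synthesis, was called lower (-0.97, adjusted p = 0.0382) and TFRC, the transferrin receptor, higher (0.48, adjusted p = 0.0324), with sums of 198462 to 202230. Among all tested probes 7.39% were called lower and 6.42% higher there. The part of the erythroid markers in the Rh results was not tested.

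Most tested markers of other blood lineages stayed uncalled between the lines, and some were bright: CD3D read 548.3 to 2874.3 over the 12 arrays, and LYZ 578.4 to 927.9 in AE9a cells. Beside the counts below, 13.2% of all tested probes were called higher and 13.4% lower in AE9a over wild type cells under control siRNA. Of 6 tested megakaryocyte markers, ITGA2B alone was called higher in AE9a cells under control siRNA, with summed intensities of 816 to 881 against 757 to 764, and GP9, PF4, VWF and SELP were above background on no array. Of 8 tested granulocyte and monocyte markers, LYZ was called higher and PRTN3 lower, with sums of 1255 to 1571 against 744.5 to 951.9, and MPO, ELANE, CSF3R and CSF1R were above background on no array. Of 4 tested lymphoid markers, CD3D was called lower, with sums of 790 to 851 against 1148 to 2379, and CD3E was above background on no array. The part of these markers in the results was not tested.

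For each of the 5 tested genes, the 3 genes with the most similar pattern over the 12 arrays were found by the root mean square difference of log2 values after each probe's own mean was removed. For RHCE, whose own root mean square was 1.96, these were SYP (0.277), ADGRG1 (0.294) and FGGY (0.295). For RHD, with 1.57, they were GPRC5C (0.129), CT45A5 (0.156) and VCY (0.186). RHCE, with its larger root mean square, was not among the 3 genes nearest to RHD. For RHAG, with 0.469, they were ASAP2 (0.0785), PLXNB2 (0.0861) and ARF4 (0.106). For EPB42, with 0.506, they were NIN (0.114), CHST15 (0.116) and ZNF398 (0.122), and for ANK1, with 0.652, SLC22A4 (0.170), GLRX (0.177) and DNAJC15 (0.196). Most of this likeness is the step between the lines, which all these genes share: the 3 genes nearest to RHCE differed between the lines by 3.58 to 4.55 and under siPRMT1 in AE9a cells by -0.89 to -0.22.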

How the data were processed

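RNA of K562 cells was read on 12 Illumina BeadChip arrays. The deposited values used were raw probe intensity, not normalised by the authors, with GenomeStudio named in the submitters' processing notes. The authors' processed values, a linear intensity table whose columns matched the raw ones best by rank, served as an alternative; the sources used here do not give their scaling method. Raw intensities were corrected with normexp (offset 50), quantile-normalised and put on the log2 scale with limma 3.58.1 in R 4.3.3. Probes with a mean above the 40th percentile (28338 of 47231) were fitted with 1 mean per group over all 12 arrays and eBayes with an intensity trend (13.8 degrees of freedom, two-sided), in 5 contrasts, and tested on simulated data. Of the probes, 30113 had 1 gene symbol, 8 several and 17110 none. A gene is represented by its brightest probe. Background-limited groups give bounds against the higher of the group's own level and the lowest signal above the olfactory receptor level (437 probes). The number of arrays limits precision. Members, gene lists and tests were chosen with earlier results of these data known; of the listed companion genes, at most 3 with the smallest adjusted p per contrast were named, and others named were chosen after their values were seen. Replicate numbers paired the wild type arrays, by correlations above 0.1, and not the AE9a arrays. Alternatives covered background, scaling, filter, variance model, weights, pairing, samples fitted and single arrays.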

Additional observations from a re-analysis of the deposited data

How the results depend on the processing

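For the Rh and membrane genes, all 17 called differences kept direction and call in all 403 alternatives run; RHCE under siPRMT1 in AE9a cells ranged from -0.93 to -0.83 and RHD from -0.65 to -0.49 when single arrays were left out. Counts over all probes moved more. For siPRMT1 in AE9a cells the count of 3913 became 7100 with array weights, 6571 with only the 2 groups compared and 6093 with the replicate block in wild type arrays, and leaving out 1 array gave 2088 (without AE9a siPRMT1 replicate 3) to 5076. In wild type cells the count of 0 became 14 with that block, and leaving out 1 array gave 0 to 851 (without wild type control replicate 3). For the difference between lines the count of 260 became 473 without an intensity trend, 455 with array weights, 403 with the replicate block in all arrays and 1240 with the replicate block in wild type arrays, where 1 gene of the set, RHCE, was called (its second probe, at background in wild type cells, had adjusted p = 0.0401 and RHD 0.0506). Leaving out 1 array gave 82 to 347. The cause of these shifts was not tested. An offset of 16 raised RHCE in AE9a over wild type cells under control siRNA from 4.19 to 4.57. The block changed no other call of the set. Signal over background limits RHD, EPB42 and the dimmer probes in wild type cells, and SLC4A1 everywhere.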
